A study of Mus musculus with 12 samples.

Results

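The genes described here encode the oxygen-sensing pathway built on hypoxia-inducible factor (HIF) and a few of its targets: Hif1a, Egln1, Egln2, Egln3, Vhl, Bnip3, Bnip3l, Vegfa, P4ha1 and Kdm3a. They were taken by name from the deposited gene tables and are 10 of the 20837 genes that could be matched across all files. In cells with enough oxygen, the prolyl hydroxylases encoded by Egln1, Egln2 and Egln3 (PHD2, PHD1 and PHD3) mark HIF-1α, the product of Hif1a, for binding by the von Hippel-Lindau protein (Vhl), which sends it for degradation. When oxygen falls, HIF-1α persists, pairs with ARNT and binds short DNA motifs near its targets, among them the mitophagy receptor genes Bnip3 and Bnip3l, the angiogenic growth factor gene Vegfa, the collagen prolyl hydroxylase gene P4ha1 and the histone demethylase gene Kdm3a. Because much of this control acts on the protein, the transcript of Hif1a need not follow the activity of the pathway. In regulatory T cells (Treg), HIF-1α is known for its ties to glycolysis and to the balance with Th17 cells.

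The cells were Treg sorted as live CD45+CD4+EGFP[Foxp3]+CD69+ cells from DEREG mice, a C57BL/6 strain with the transgene Tg(Foxp3-DTR/EGFP), in which Foxp3 control drives a diphtheria toxin receptor and EGFP. All groups share this transgene, the CD69 gate and ligation of the inferior vena cava, a flow reduction model of deep vein thrombosis, 14 days earlier. The 12 libraries comprised 4 from spleen, 4 from thrombus and 4 from vein wall. Age was not used here, and the labels do not say whether a library pooled mice. P-values therefore reflect only how much these samples vary, and that variation may be technical.

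Total exon reads were between 9719151 and 55386086 per library, with no molecular identifiers. A floor given for a count of 0 covers counting error only, whereas SDs and SEs also include the spread between samples. Libraries 3 and 4 of spleen, and likewise 3 and 4 of vein wall, were nearly alike (median chi-square per gene 1.19 and 0.98, against at least 37.3 for the other pairs of 1 tissue), and each pair was summed and counted as 1 sample. This left 10 samples: 3 from spleen, 4 from thrombus and 3 from vein wall. By their columns and gene models the files fall into 3 sets. Set 1 holds library 1 of spleen and of thrombus, set 2 holds library 2 of both and library 1 of vein wall, and set 3 holds the other 7 libraries. The 10 Treg identity markers checked, Foxp3, Il2ra and Ctla4 among them, were all detected in every sample, with summed levels of 6596 to 8797 CPM (reads scaled to library size). In set 2, 2 samples stood apart: the summed level of 11 dendritic cell genes was 10956 CPM in thrombus 2 and 11957 CPM in vein wall 1, against 1161 to 2927 CPM elsewhere, and 12 macrophage genes summed to 1777 CPM in thrombus 2 against 23.7 to 267 CPM elsewhere. Most of the dendritic sum was Cd74, H2-Ab1 and H2-Aa, and 2 of the 11 genes had 0 reads in thrombus 2 and 4 of 11 in vein wall 1. Among the more cell-specific genes, Siglech was at 75.9 CPM in thrombus 2 and 12.7 CPM in vein wall 1 against at most 0.21 CPM elsewhere, and Flt3 at 7.38 and 3.99 CPM against at most 6.55 CPM elsewhere. Clec9a was at 4.31 CPM in thrombus 2 and at 0 in vein wall 1, and Cd209a was at 0 in both. The remaining dendritic genes were highest in other samples. In thrombus 2 and vein wall 1, Zbtb46 was at 1.06 and 2.91 CPM, against up to 12.4 CPM elsewhere. Xcr1 was at 0 and 0.76 CPM against up to 6.56 CPM. Itgax was at 5.03 and 0 CPM against up to 7.27 CPM, and Batf3 at 1.45 and 0 CPM against up to 3.83 CPM.

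The core of the motif that HIF binds is ACGTG or GCGTG, and the sequences before the transcription starts of these genes were searched for it on both strands. The promoter table used (RefSeq, GRCm38.p6) listed 13 start windows for 9 of the 10 genes, with Bnip3l not listed. In the 250 bases before the start, 9 of the 13 windows held at least 1 match, and 8 of the 9 genes had a match in at least 1 window. Over all 32851 windows of the table the share with a match was 38.6%. That share is per window and compares with the 9 of 13, and no share per gene was computed over all genes. An ACGTG on each strand overlap in CACGTG, and both are then counted. The 4 windows printed contain no annotated exon base and let the matches be read in place. They are those of P4ha1, which had the lowest unadjusted p against spleen of the 10 genes, of Egln2 and Egln3, of which the first is the most abundant of the hydroxylases and the second a known HIF target, and of Hilpda, the only gene of the pathway lists that passed the test with tissue alone. Matches are in capitals, each sequence runs 5′ to 3′ on the gene's strand, and positions count back from -1, the base before the start.
P4ha1 (chr10:59323046-59323295, plus strand): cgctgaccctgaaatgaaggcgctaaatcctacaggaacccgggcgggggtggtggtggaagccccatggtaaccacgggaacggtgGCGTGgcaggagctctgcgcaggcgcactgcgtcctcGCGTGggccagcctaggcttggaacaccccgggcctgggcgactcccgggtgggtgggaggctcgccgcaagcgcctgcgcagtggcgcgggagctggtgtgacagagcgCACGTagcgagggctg
Egln2 (chr7:27166803-27167052, minus strand): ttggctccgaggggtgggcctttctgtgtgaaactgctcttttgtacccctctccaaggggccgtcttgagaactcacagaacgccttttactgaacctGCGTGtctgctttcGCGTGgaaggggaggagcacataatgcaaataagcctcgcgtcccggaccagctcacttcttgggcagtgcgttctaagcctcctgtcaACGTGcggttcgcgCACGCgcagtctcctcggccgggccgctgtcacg
Egln3 (chr12:54203875-54204124, minus strand): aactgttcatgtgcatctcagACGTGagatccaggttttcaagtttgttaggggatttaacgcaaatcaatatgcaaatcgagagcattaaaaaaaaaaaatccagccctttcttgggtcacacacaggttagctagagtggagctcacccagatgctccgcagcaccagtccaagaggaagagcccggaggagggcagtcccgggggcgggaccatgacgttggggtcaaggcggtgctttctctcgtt
Hilpda (chr6:29272238-29272487, plus strand): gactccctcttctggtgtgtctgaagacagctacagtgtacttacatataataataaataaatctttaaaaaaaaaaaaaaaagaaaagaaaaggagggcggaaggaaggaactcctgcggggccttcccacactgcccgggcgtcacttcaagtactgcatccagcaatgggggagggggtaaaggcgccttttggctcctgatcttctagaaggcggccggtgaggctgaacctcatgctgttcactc
P4ha1 had 3 matches, starting at -163, -126 and -16. Egln2 had 4, in 2 close pairs (-151 with -137, and -48 with -34), and 1 in the window of a second start. Egln3 had 1, at -229. This Hilpda window held none, while the window of its second listed start, which overlaps the transcript from the first, held 3. Of the other genes, Bnip3 had 5 matches, Hif1a 3 and Egln1 2. Vhl had none in its single window. Kdm3a had 1 in its window at chr6:71632918-71633167 and none in its other 2. Vegfa had 2 in its window at chr17:46025164-46025413, where 218 of the 250 bases are annotated exon, and none in the other. A match is only these letters, and no binding was measured.

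Across tissues none of the 10 genes passed the test, and all 10 passed the filter on low counts. In edgeR's quasi-likelihood test with Benjamini-Hochberg adjustment over 11689 genes, 0 of the 10 were called between thrombus and spleen, where 17 genes (0.145% of those tested) were called. Between vein wall and spleen 0 of the 10 were called beside 13 genes (0.111%). Between thrombus and vein wall neither the 10 nor any other gene was called, while 340 genes (2.91%) had an unadjusted p under 0.05. No gene of the 10 had an unadjusted p under 0.05 in any of the 3 comparisons, beside 4.14% and 5.47% of all genes in the comparisons against spleen, and none had groups that did not overlap. Non-overlap was seen in 5.0% of all genes between thrombus and spleen, in 13.3% between vein wall and spleen and in 3.83% between thrombus and vein wall. The lowest adjusted p of the 10 was 0.928, and 0 of 499 values refitted under alternative settings passed. The standard errors set what could be seen: for all but Vegfa they were between 0.32 and 0.67 on the log2 scale.

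**Figure D1:**
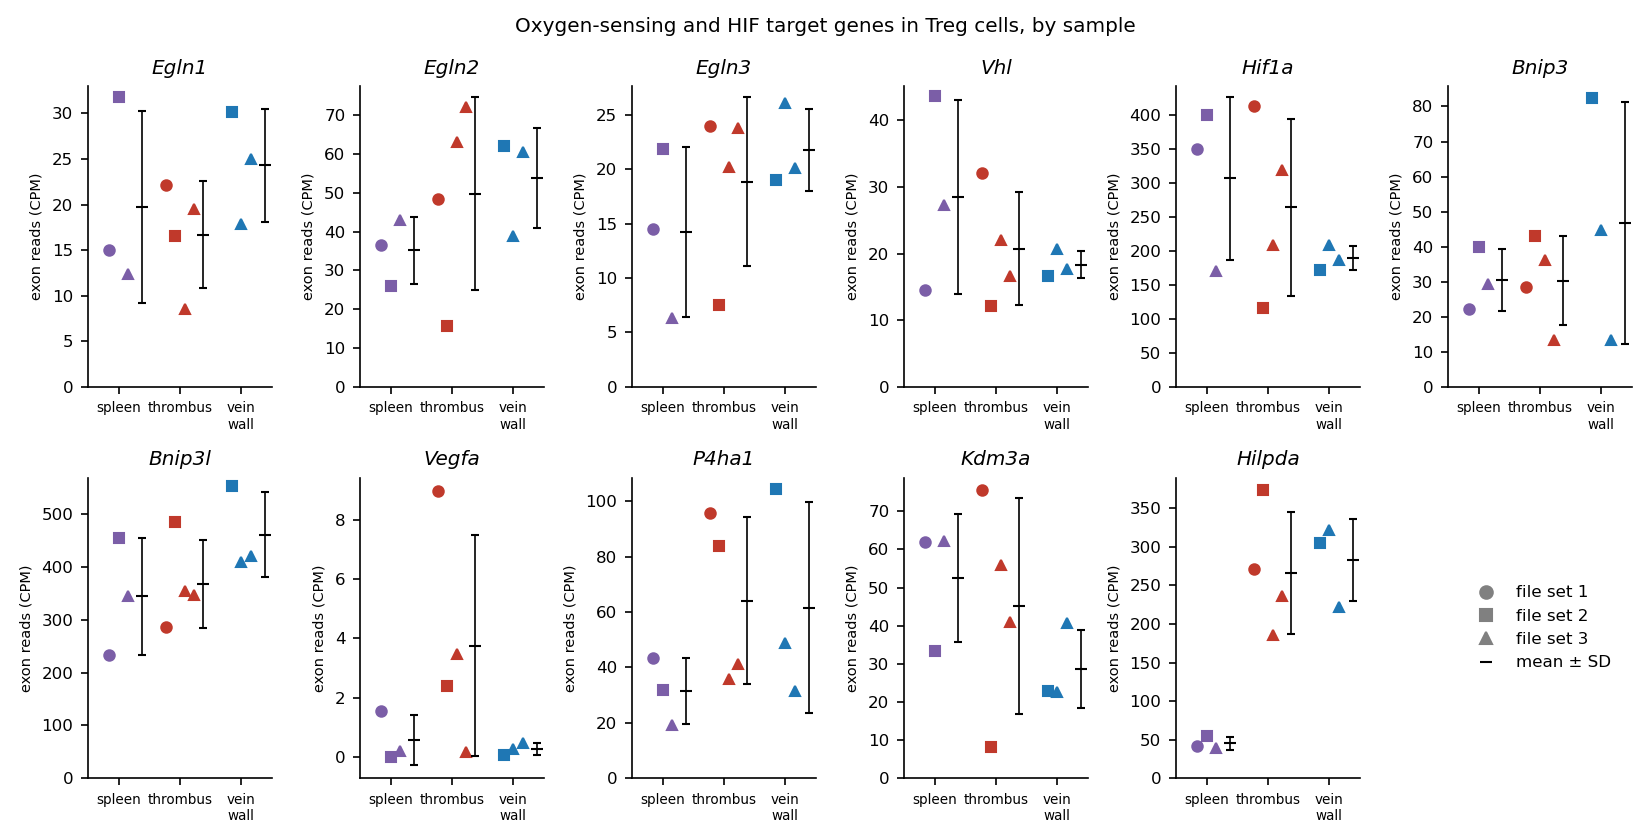
Exon reads in CPM (vertical axes) of the 10 genes and of Hilpda in each sample of spleen, thrombus and vein wall. Each point is a sample, its shape gives the set of files, and the black bar is the mean ± SD (n = 3, 4 and 3). Groups overlap for all 10 genes, whereas every thrombus and vein wall sample lies above every spleen sample for Hilpda.

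Levels are compared between genes only per exon length, in CPM per kilobase. Bnip3l was the highest at 113 ± 28.5 CPM per kilobase (SD, n = 10 samples over all tissues). Hif1a followed at 47.0 ± 18.9, Egln2 at 20.5 ± 8.53, Bnip3 at 19.0 ± 11.8 and P4ha1 at 12.96 ± 7.16 CPM per kilobase. Vhl, Kdm3a, Egln3 and Egln1 lay close together at 7.95 ± 3.45, 7.38 ± 3.25, 6.88 ± 2.56 and 5.54 ± 2.08. Vegfa was last at 0.436 ± 0.662. Of the neighbours in this order, only Egln1 and Vegfa had ranges over samples that did not overlap (lowest Egln1 2.38, highest Vegfa 2.09 CPM per kilobase). The exon length of a gene differed between the sets' gene models, most for Kdm3a (8225 bases in set 1, 5082 in set 2, 5008 in set 3), so levels set across sets carry that difference. These levels count total exon reads. Only 6.01% to 25.6% of them matched a single place for Hif1a, 13.02% to 61.6% for Bnip3 and 34.7% to 69.4% for Bnip3l. The places of these genes in the order are uncertain to that extent.

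Among the oxygen sensors, Egln2 was the most abundant per length in all 10 samples. It made up 42.0% to 76.9% of the summed per-length level of the 3 Egln genes. The mean share was 58.8% ± 17.5 in spleen (SD, n = 3), 61.7% ± 11.8 in thrombus (n = 4) and 61.8% ± 6.34 in vein wall (n = 3). Egln3 took 20.4% ± 9.72, 21.3% ± 4.28 and 21.4% ± 7.75 in the same order, and Egln1 the rest. The make-up of the hydroxylase transcripts thus differed between tissues by less than the spread between samples.

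Egln1 encodes PHD2, the main hydroxylase that sets HIF-1α levels in normal oxygen (chromosome 8, 124908587 to 124949324, minus strand; GRCm38, per the files of set 3). It was at 15.0 and 31.8 CPM in spleen 1 and 2 and at 12.4 in the summed spleen sample. The 4 thrombus samples, in order, gave 22.1, 16.5, 8.57 and 19.6 CPM. Vein wall gave 30.2 and 17.8 CPM in samples 1 and 2 and 24.9 in the summed sample. The highest spleen sample was above all others and the groups overlapped fully. The log2 fold change was -0.24 ± 0.59 (SE) for thrombus against spleen and 0.30 ± 0.63 for vein wall against spleen.

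Egln2 (PHD1; chromosome 7, 27158658 to 27166802, minus strand) was at 36.6, 26.0 and 42.9 CPM in spleen 1, 2 and the summed sample. In thrombus 1 to 4 it was at 48.5, 15.7, 63.0 and 72.1 CPM, and in vein wall 1, 2 and the summed sample at 62.0, 38.9 and 60.5 CPM. Thrombus 2 was the lowest of all 10 samples, and the other 3 thrombus samples lay above all spleen samples. The log2 fold change was 0.50 ± 0.50 for thrombus and 0.61 ± 0.53 for vein wall, each against spleen.

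Egln3 (PHD3; chromosome 12, 54178981 to 54203860, minus strand), itself induced by HIF in many cells, was at 14.5, 21.9 and 6.33 CPM in spleen 1, 2 and the summed sample. The thrombus values were 23.9, 7.49, 20.2 and 23.8 CPM, and vein wall gave 19.1, 26.1 and 20.1 CPM. The summed spleen sample and thrombus 2 were low, and the other 8 samples lay between 14.5 and 26.1 CPM. Its log2 fold change was 0.41 ± 0.63 for thrombus and 0.61 ± 0.67 for vein wall against spleen.

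Vhl, the substrate receptor of the ligase that takes hydroxylated HIF-1α (chromosome 6, 113623959 to 113631633, plus strand), was at 14.6, 43.6 and 27.3 CPM in spleen 1, 2 and the summed sample. In thrombus it was at 32.1, 12.2, 22.1 and 16.7 CPM. Vein wall was narrow, at 16.7, 20.6 and 17.7 CPM, and lay within the spleen range. Against spleen, the log2 fold change was -0.46 ± 0.57 for thrombus and -0.64 ± 0.61 for vein wall.

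Hif1a (chromosome 12, 73901375 to 73947530, plus strand) was at 350.2 and 400.2 CPM in spleen 1 and 2 and at 171 CPM in the summed spleen sample. Its thrombus levels were 414, 116, 209 and 320 CPM. Vein wall gave 173, 209 and 188 CPM. The summed spleen sample was as low as vein wall, and thrombus spanned both the highest and the lowest of the 10 samples. The log2 fold change was -0.22 ± 0.40 for thrombus against spleen, -0.70 ± 0.43 for vein wall against spleen and 0.48 ± 0.40 for thrombus against vein wall. Within set 1 thrombus was above spleen by 0.24 log2 units and within set 3 by 0.59, while within set 2 it was below spleen by 1.79 (difference -1.79). The set 2 thrombus sample is the one with the high dendritic and macrophage sums, whose part in this value was not tested. Leaving out set 2, an alternative added after the data were seen, gave 0.28 ± 0.39 for thrombus against spleen.

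Few of the Hif1a exon reads matched a single place. Only 6.01% to 25.6% did so in the 12 libraries, against at least 98.1% for Egln1, at least 99.6% for Vhl, at least 99.8% for P4ha1 and all reads of Egln2, Egln3, Kdm3a and Vegfa. Searching the longest coding transcript of Hif1a against the GENCODE vM21 transcripts (at least 100 aligned bases, 90% identity) found no copy among transcripts of other loci. Sequence outside annotated transcripts was not searched. The search found 2 transcripts at the same locus: Gm15283, on the opposite strand, and Gm49321. The libraries do not mark strand, so reads of Hif1a and Gm15283 cannot be told apart. Gm15283 was given 7 to 144 gene reads per library, against 1973 to 9459 exon reads for Hif1a. In unique exon reads alone the log2 fold change of Hif1a for vein wall against spleen was -1.39 ± 0.61 (unadjusted p = 0.0367, edgeR adjusted p = 0.945), compared with -0.70 in total reads. An unadjusted p under 0.05 was reached by 5.11% of all genes in that fit. With the set as covariate as well, an alternative added after the data were seen, it was -1.07 ± 0.58 (unadjusted p = 0.0834, edgeR adjusted p = 0.716), where 7.57% of all genes had an unadjusted p under 0.05. The vein wall libraries of set 3 had the lowest unique shares, 6.01% to 11.9%, against 14.5% to 17.2% in the spleen and thrombus libraries of that set.

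Bnip3 and Bnip3l encode receptors of the outer mitochondrial membrane that bind LC3 and mark mitochondria for autophagy. Bnip3 (chromosome 7, 138890836 to 138909519, minus strand) was at 22.1, 39.8 and 29.4 CPM in spleen 1, 2 and the summed sample. In thrombus 1 to 4 the levels were 28.6, 43.0, 36.2 and 13.4 CPM. Vein wall had the widest spread, with 82.3, 44.7 and 13.4 CPM. The highest and nearly the lowest of the 10 samples were thus both from vein wall. For Bnip3 the log2 fold change was -0.01 ± 0.57 for thrombus and 0.62 ± 0.61 for vein wall against spleen, and without vein wall 1 the latter was -0.05.

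Bnip3l (chromosome 14, 66985239 to 67008877, minus strand) was at 232, 455 and 346 CPM in spleen 1, 2 and the summed sample. Thrombus 1 to 4 gave 287, 485, 354 and 348 CPM, and vein wall 553, 410.3 and 421 CPM. The set 2 sample was the highest in each tissue, and the set 1 sample was the lowest in spleen and in thrombus. For Bnip3l the log2 fold change was 0.10 ± 0.32 for thrombus against spleen and 0.42 ± 0.34 for vein wall against spleen. With a term for the set of files the SE was 0.20 and 0.22, and the values were 0.13 and 0.32 (edgeR adjusted p = 0.998 and 0.791). Per length, Bnip3l exceeded Bnip3 in all 10 samples, by a ratio of 3.31 to 17.7.

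Both mitophagy receptor genes had many exon reads with more than 1 match, and both have near-identical copies in the annotation. Bnip3 had 13.02% to 19.3% unique exon reads in sets 1 and 3 but 54.4% to 61.6% in set 2, whose gene models differ. Its transcript aligned at 93.4% to 98.9% identity over 544 to 858 bases to 5 loci elsewhere (AC160336.1, Gm16439 and Gm6532 on chromosome 14, Gm9419 on chromosome 3 and Gm14506 on chromosome X) and to the antisense gene Gm45507 at its own locus. Bnip3l had 34.7% to 37.4% unique reads in set 1 and 60.9% to 69.4% in the other sets, and its copy Bnip3l-ps on chromosome 12 was 99.2% identical over 663 bases. Where listed, these copies were given at most 36 gene reads in a library, and whether the multiply matching reads belong to them was not tested. Levels of both genes, and their ratio, are uncertain to that extent.

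**Figure D2:**
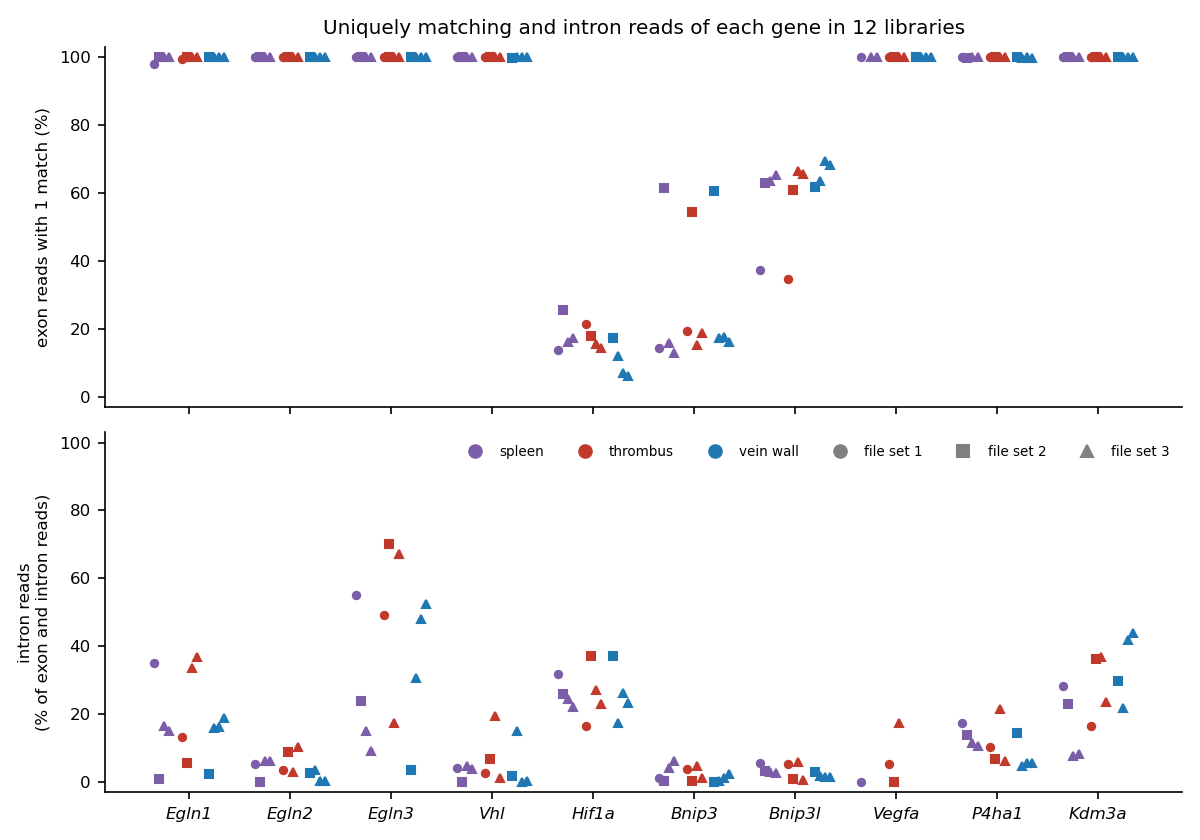
Share of exon reads with a single match (upper panel, percent) and intron reads as a percent of exon and intron reads (lower panel, where a library had at least 20 such reads) for each gene in the 12 libraries. Colour gives the tissue and shape the set of files. Hif1a, Bnip3 and Bnip3l lie well below the others in the upper panel, and Bnip3 splits by set.

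Vegfa encodes the main ligand of the endothelial VEGF receptors (chromosome 17, 46016993 to 46032369, minus strand), and its reads were few. Spleen gave 22 reads in sample 1 (1.54 CPM), 0 reads in sample 2, which allows up to 0.161 CPM (3 counts), and 17 reads in the summed sample (0.22 CPM). Thrombus 1 to 4 gave 138, 43, 33 and 2 reads, or 8.96, 2.40, 3.49 and 0.19 CPM. Vein wall gave 1, 5 and 19 reads, or 0.06, 0.27 and 0.47 CPM. Thrombus 1, 2 and 3 were above every spleen and vein wall sample, and thrombus 4 was among the lowest. The log2 fold change was 2.69 ± 1.94 for thrombus against spleen (edgeR unadjusted p = 0.183) and 3.76 ± 2.05 for thrombus against vein wall (unadjusted p = 0.0825). Within each set thrombus was above spleen, by 2.21, 2.54 and 1.20 log2 units in sets 1, 2 and 3, at a pseudocount of 0.5 CPM. The macrophage sum was 68.8, 1777, 51.5 and 64.7 CPM in thrombus 1 to 4, and its part in the Vegfa values was not tested.

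P4ha1, the catalytic subunit of the collagen prolyl 4-hydroxylase (chromosome 10, 59323296 to 59373304, plus strand), had the lowest unadjusted p against spleen of the 10. It was at 43.3, 31.9 and 19.3 CPM in spleen 1, 2 and the summed sample. Levels in thrombus 1 to 4 were 95.7, 83.7, 36.0 and 41.2 CPM. Vein wall gave 104, 48.9 and 31.6 CPM. Thrombus 1 and 2 and vein wall 1 were more than 80 CPM, and vein wall 2 was just above the highest spleen sample, while the other 3 lay within the spleen range. The log2 fold change was 1.03 ± 0.52 for thrombus against spleen (edgeR unadjusted p = 0.0611, adjusted p = 1.00) and 0.97 ± 0.54 for vein wall against spleen (unadjusted p = 0.0901, adjusted p = 0.928).

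Within each set the P4ha1 level was higher than in spleen of the same set. The ratio of thrombus to spleen was 2.20 in set 1, 2.60 in set 2 and 1.97 in set 3, and that of vein wall to spleen was 3.24 in set 2 and 2.02 in set 3. With the set as covariate the log2 fold change was 1.17 ± 0.38 for thrombus (edgeR unadjusted p = 0.0064, adjusted p = 0.322) and 1.33 ± 0.42 for vein wall (unadjusted p = 0.0056, adjusted p = 0.331), neither past the threshold. An unadjusted p under 0.05 was reached by 6.82% and 7.84% of all genes in these 2 comparisons. Thrombus and vein wall did not differ beyond their spread in P4ha1 (log2 fold change 0.06 ± 0.50).

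Vein wall 1 carried much of the vein wall value of P4ha1: without it the log2 fold change was 0.38 ± 0.57. Without all of set 2 it was 0.40 ± 0.61 for vein wall and 0.89 ± 0.57 for thrombus. Thrombus 2 and vein wall 1 are the samples with the high dendritic sums, whose part in the P4ha1 difference was not tested. Fibroblasts use P4ha1 in collagen synthesis, and the summed level of 9 fibroblast genes was 0 to 2.89 CPM in spleen, 8.16 to 20.7 CPM in thrombus and 10.5 to 60.2 CPM in vein wall. The part of these cells was not tested either, and in sorted bulk samples a few cells of another type and low expression in many cells cannot be told apart.

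Kdm3a, a demethylase of histone H3 lysine 9 that needs oxygen and is induced by HIF (chromosome 6, 71588972 to 71632990, minus strand), was at 62.0, 33.2 and 62.3 CPM in spleen 1, 2 and the summed sample. Thrombus 1 to 4 gave 75.5, 8.17, 55.8 and 41.1 CPM, and vein wall 22.9, 22.6 and 40.6 CPM. Thrombus 2 was the lowest of all, and 2 of the 3 vein wall samples were below every spleen sample. Its log2 fold change was -0.22 ± 0.57 for thrombus and -0.87 ± 0.62 for vein wall against spleen. Without thrombus 2 the former was 0.14.

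**Figure D3:**
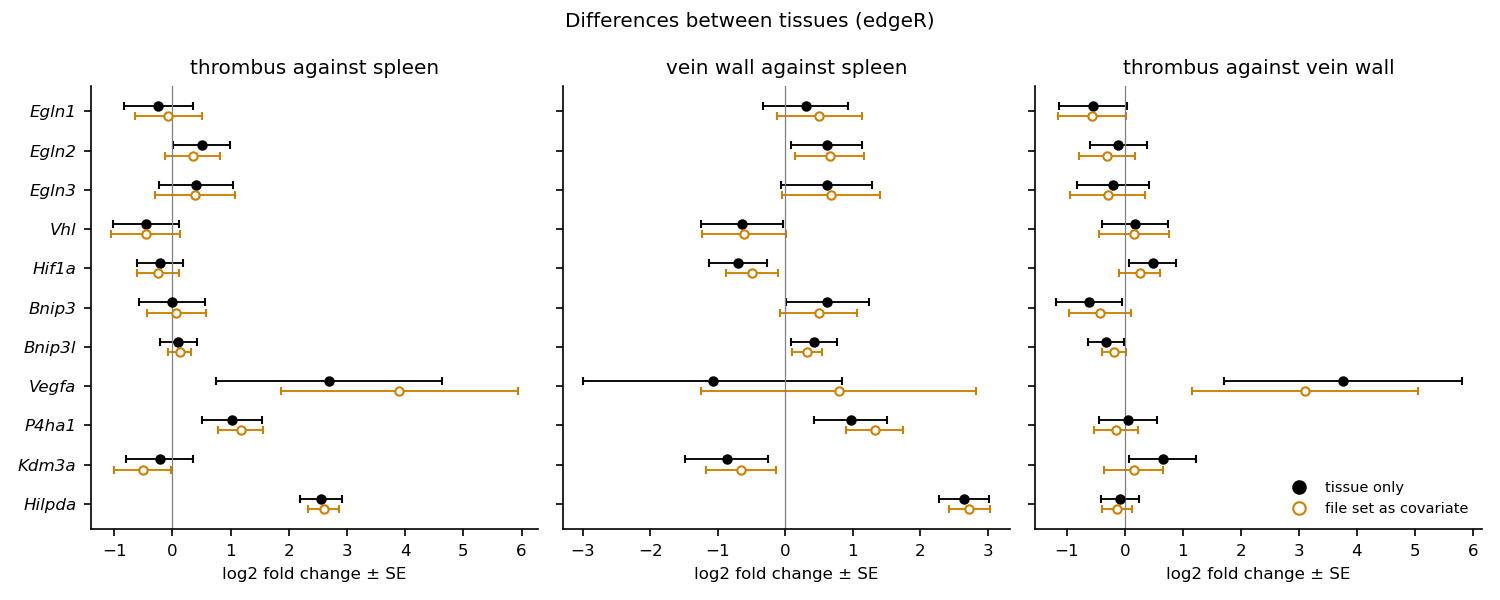
Log2 fold changes (horizontal axes) with their SE for the 10 genes and Hilpda in the 3 comparisons, from edgeR with tissue alone (filled) and with a term for the set (open). P4ha1 lies near 1 in both comparisons against spleen and near 0 between thrombus and vein wall, and Hilpda near 2.6 in both comparisons against spleen.

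Set against all genes, direction within the sets was not rare. Between thrombus and spleen, 3 of the 10 genes (Bnip3l, Vegfa and P4ha1) were higher in thrombus in all 3 sets, compared with 12.8% of all genes, and none was lower in all 3, compared with 15.4%. Between vein wall and spleen, 4 (Egln2, Bnip3l, Vegfa and P4ha1) had higher values in both sets that hold both tissues, compared with 24.9% of all genes, and 2 (Vhl and Kdm3a) were lower in both, compared with 28.6%. For Vegfa the set 2 value rests on 1 read in vein wall against 0 in spleen, so its direction there is not determined at this depth. The set differences spanned more than 1 log2 unit within a gene for Hif1a, Egln1, Egln2, Egln3, Vhl, Kdm3a and Vegfa between thrombus and spleen. In each of these except Vegfa the lowest difference was that of set 2. The median log2 fold change of the 10 was 0.05 for thrombus and 0.36 for vein wall against spleen, beside 0.03 and -0.01 over all genes.

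**Figure D4:**
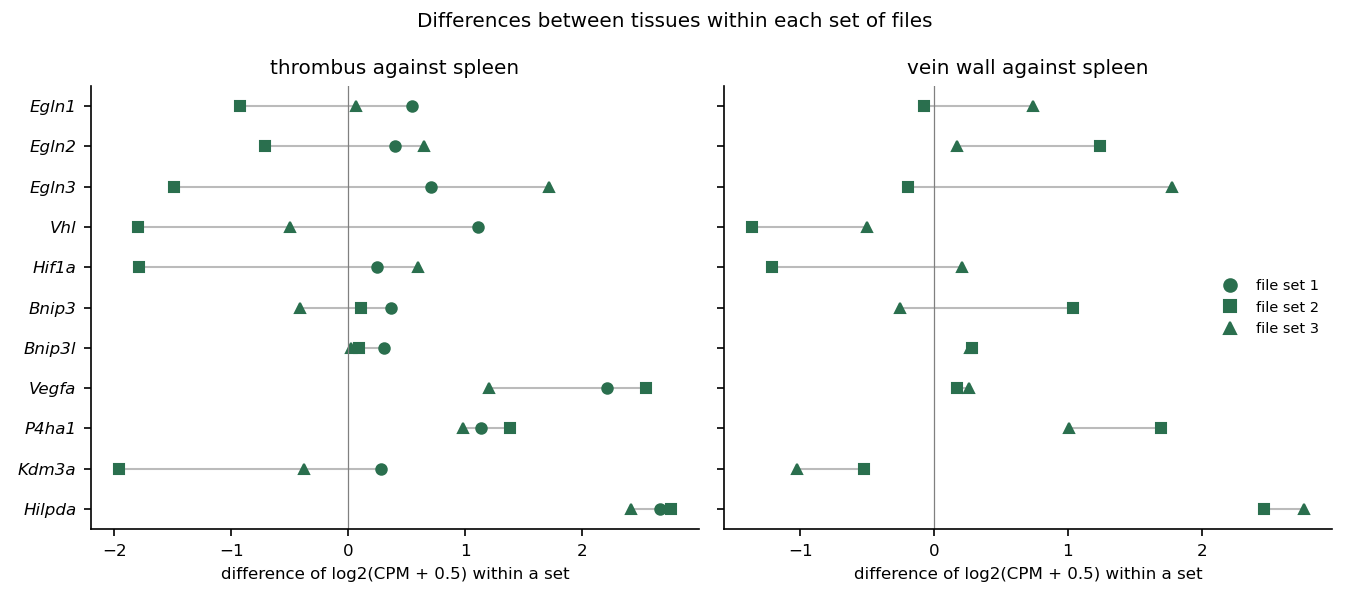
Difference of log2(CPM + 0.5) between tissues within each set of files (horizontal axes) for the 10 genes and Hilpda, with 1 point per set and a line over their range. Against spleen, Bnip3l, P4ha1, Vegfa and Hilpda have values above 0 in each set. For Vegfa the set 2 value of vein wall rests on 1 read. Between thrombus and spleen, Hif1a, Egln1, Egln2, Egln3, Vhl, Bnip3 and Kdm3a cross 0.

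Intron reads gave a second readout of the same libraries. Over all genes they made up 12.1% to 20.5% of exon and intron reads per library. Bnip3, Bnip3l and Egln2 were below this throughout (at most 6.11%, 5.85% and 10.4%). Hif1a was at 16.5% to 37.1%, with 31.9%, 26.1%, 24.5% and 22.1% in spleen 1 to 4. It was at 16.5%, 37.1%, 27.2% and 23.0% in thrombus and 37.1%, 17.4%, 26.2% and 23.3% in vein wall, so the tissues overlapped. In every library of set 3, however, 0 of the Hif1a intron reads matched a single place. In sets 1 and 2 most of them did (1962 of 2334 in spleen 1), so the Hif1a shares are not alike between sets. Egln3 ranged from 3.53% in vein wall 1 to 70.2% in thrombus 2, and in thrombus 4 it had 524 intron reads beside 257 exon reads. Kdm3a was at 7.75% and 8.22% in spleen 3 and 4, which are near-duplicates, at 28.2% and 23.0% in spleen 1 and 2, and at 16.5% to 43.8% in the other libraries. Egln1 ranged from 0.835% to 36.8%, with all 3 libraries of set 2 at 5.73% or less.

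The other genes of the pathway were read from lists. Of 16 genes of the oxygen-sensing machinery, all were tested, 0 were called in any comparison, and their median log2 fold change was 0.14 for thrombus and 0.04 for vein wall against spleen. The genes of the other HIF α subunits, Epas1 (HIF-2α) and Hif3a, were barely detected. Epas1 was at 0 to 2.33 CPM and Hif3a at 0 to 7.50 CPM over the 10 samples. Siah1a, a ubiquitin ligase that targets the hydroxylases, was at 14.4, 29.97 and 18.4 CPM in spleen, at 12.98, 12.2, 12.4 and 2.41 CPM in thrombus and at 2.79, 5.91 and 9.88 CPM in vein wall. Its groups did not overlap in either comparison against spleen, and the log2 fold change was -1.06 ± 0.76 for thrombus and -1.75 ± 0.84 for vein wall (edgeR adjusted p = 1.00 and 0.895). Of the 16 genes, 1 and 2 had groups that did not overlap in these comparisons, beside 5.0% and 13.3% of all genes. Cited2, which competes with HIF-1α for its coactivators, gave -0.78 ± 0.63 and -0.96 ± 0.68. P4htm, a transmembrane prolyl hydroxylase, gave 1.25 ± 0.98 for thrombus, and Tceb2 (elongin B of the VHL ligase) 0.61 ± 0.44 for vein wall.

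Of 20 genes of glucose uptake and glycolysis, 0 were called, and the median was 0.18 for thrombus and 0.08 for vein wall. Hk2, the inducible hexokinase, was at 3.72, 4.61 and 11.03 CPM in spleen, at 14.3, 19.5, 40.7 and 29.6 CPM in thrombus and at 13.6, 27.4 and 18.2 CPM in vein wall. All samples of both tissues lay above all spleen samples. Against spleen, groups did not overlap for 2 of the 20 genes in thrombus and for 4 in vein wall. Over all genes the shares were 5.0% and 13.3%. For Hk2 the log2 fold change was 2.00 ± 0.67 for thrombus and 1.61 ± 0.69 for vein wall (edgeR adjusted p = 0.732 and 0.867). Pfkfb4, which makes the activator of glycolysis fructose 2,6-bisphosphate, went the other way in value, at -2.32 ± 1.499 and -1.86 ± 1.63. All thrombus samples lay below all spleen samples for Pfkfb4, while vein wall and spleen overlapped. Pdk1, which holds pyruvate back from mitochondria, gave -0.59 ± 0.58 and -1.25 ± 0.64, with all vein wall samples below all spleen samples. The lactate exporter Slc16a3 gave 1.54 ± 1.37 and 1.03 ± 1.41. None of these passed the test.

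Of 32 other HIF targets, 28 were tested and 1 was called, Hilpda, whose product coats lipid droplets and blocks their breakdown. It was at 42.3, 54.7 and 38.8 CPM in spleen 1, 2 and the summed sample. Thrombus 1 to 4 gave 271, 373, 186 and 236 CPM, and vein wall 305, 321 and 222 CPM. The lowest thrombus sample was thus more than 3 times the highest spleen sample. It rose by 2.56 ± 0.36 log2 units in thrombus and by 2.64 ± 0.37 in vein wall against spleen (edgeR adjusted p = 0.00193 and 0.00240), and the difference between thrombus and vein wall was -0.09 ± 0.33. The 17 alternative settings for thrombus gave 2.35 to 2.74 and the 16 for vein wall 2.55 to 2.84, with an adjusted p of at most 0.0400 and 0.0461.

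With the set as covariate, where 53 genes (0.453%) were called for thrombus and 48 (0.411%) for vein wall against spleen, a second gene of this list was called, Bhlhe40, a transcriptional repressor that is induced by HIF and by T cell activation, named here after its value was seen. It was at 209, 71.4 and 53.0 CPM in spleen 1, 2 and the summed sample. Thrombus samples were at 475, 218, 311 and 376 CPM, and vein wall 261, 238 and 236 CPM. Every thrombus and vein wall sample was above every spleen sample. In that fit it rose by 1.93 ± 0.30 in thrombus and by 1.76 ± 0.32 in vein wall (edgeR adjusted p = 0.00198 and 0.0142). With tissue alone the values were 1.64 ± 0.43 and 1.14 ± 0.45, and the adjusted p was 0.391 and 0.801.

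The remaining named targets did not pass in either fit. Adora2b, an adenosine receptor, had 0 reads in all spleen samples and in thrombus 1 and 2, 104 and 8 reads in thrombus 3 and 4, and 83, 14 and 2 reads in vein wall. Hmox1, heme oxygenase 1, gave -2.53 ± 0.90 for vein wall against spleen (edgeR adjusted p = 0.752), with 28.1, 49.1 and 31.3 CPM in spleen and 6.71, 3.87 and 8.21 CPM in vein wall. Ndrg1 gave 2.59 ± 1.05 for thrombus against spleen. An unadjusted p under 0.05 was reached by 7 of the 28 genes for thrombus and by 5 for vein wall, beside 4.14% and 5.47% of all genes. Groups did not overlap for 3 and 7 of the 28, beside 5.0% and 13.3% of all genes. The list was chosen with earlier results of these data known, so these shares are no test of it. The direction was mixed, with 18 of the 28 above 0 for thrombus and 17 for vein wall. The list's median was 0.12 and 0.32.

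**Figure D5:**
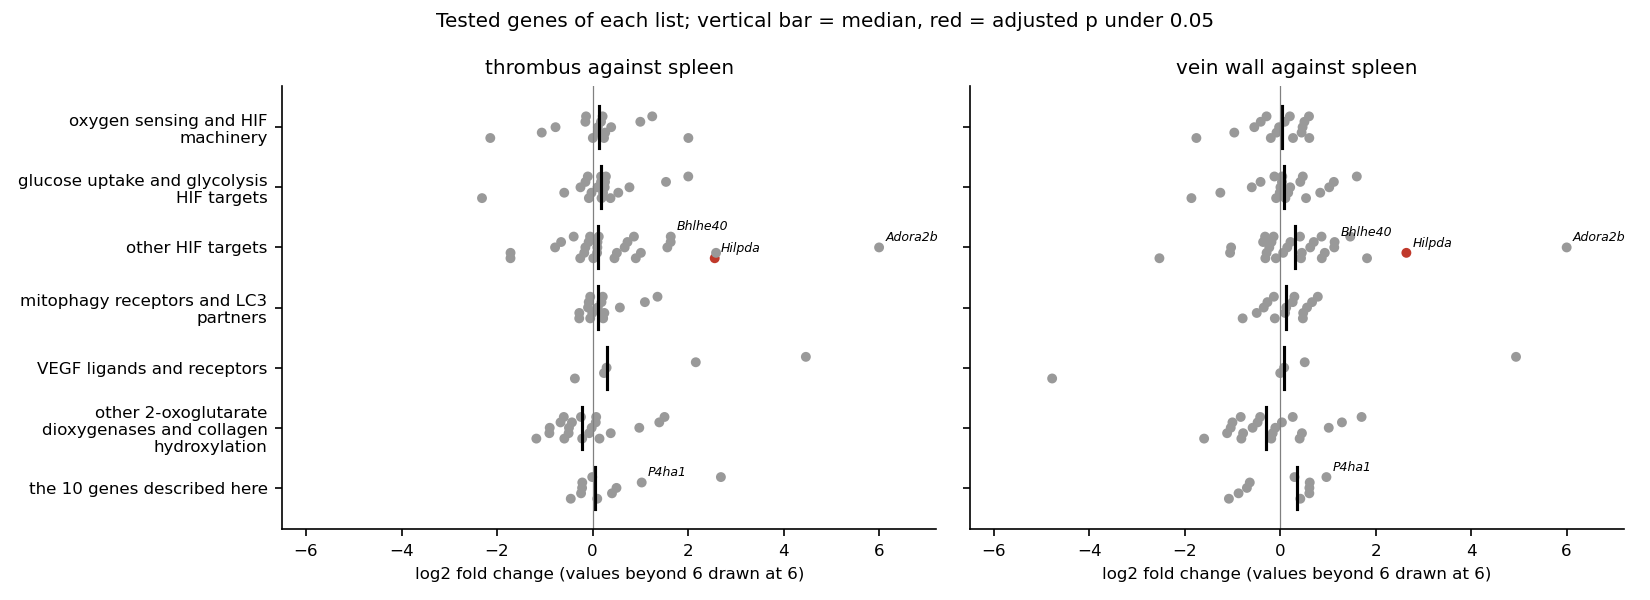
Log2 fold changes against spleen (horizontal axes) of the tested genes of each list, with 1 point per gene, the median as a bar, and genes with an edgeR adjusted p under 0.05 in red. Only Hilpda is red in each panel. Adora2b, with 0 reads in spleen, is drawn at the axis limit.

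Of 16 genes of mitophagy, the setting of Bnip3 and Bnip3l, 15 were tested and 0 called, with medians of 0.11 and 0.13. Gabarapl1, a partner that mitophagy receptors bind, gave 1.10 ± 0.53 for thrombus and 0.79 ± 0.55 for vein wall. Pink1 gave -0.79 ± 0.73 for vein wall. Map1lc3b was at 65.2 and 84.0 CPM in the 2 samples of set 1 and at 704 to 1157 CPM in the other 8, so its level followed the set of files, not the tissue. Of the 9 VEGF ligands and receptors, 5 were tested and 0 called. The receptor Flt1 was at no more than 1.27 CPM in any sample and Nrp2 at no more than 0.91 CPM. Vegfb ranged from 0.22 to 12.7 CPM. Vegfc was at 0.13 to 4.56 CPM in spleen, 0.32 to 5.87 CPM in thrombus and 0 to 0.25 CPM in vein wall. Its log2 fold change for vein wall was -4.77 ± 2.27 against spleen (edgeR adjusted p = 0.895), with 4 reads in all of vein wall.

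Of 22 further 2-oxoglutarate dioxygenases and collagen hydroxylation genes, the family to which the Egln genes, P4ha1 and Kdm3a belong or relate, 20 were tested and 0 called. The list's median was -0.23 for thrombus and -0.30 for vein wall against spleen. The collagen lysyl hydroxylase Plod1 was at 3.79, 3.48 and 2.90 CPM in spleen, at 4.02 to 16.9 CPM in thrombus and at 4.24 to 15.3 CPM in vein wall, without overlap. Its log2 fold change was 1.40 ± 0.93 and 1.71 ± 0.98. The demethylase gene Kdm6b gave 1.51 ± 0.64 for thrombus, and Kdm5c -1.59 ± 0.63 for vein wall (edgeR adjusted p = 1.00 and 0.805). Kdm5c was at 7.88 to 10.2 CPM in vein wall, below all samples of spleen (12.6 to 49.2 CPM) and thrombus (21.3 to 29.1 CPM). Of the 20 genes, groups did not overlap for 2 in thrombus and 4 in vein wall against spleen, and for 1 between thrombus and vein wall. Over all genes the shares were 5.0%, 13.3% and 3.83%.

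By the pattern of Hif1a over the 10 samples, after the mean of each set was subtracted from log2 CPM, the most alike of 11688 genes were Acot11 (an acyl-CoA thioesterase; Pearson r = 0.959), Ubash3b (a phosphatase that dampens T cell receptor signalling; r = 0.959) and Akap10 (an anchor of protein kinase A; r = 0.958). Without the subtraction r was 0.876, 0.409 and 0.793. Acot11 had 0 exon reads in thrombus 2, and in the other 9 samples 0% to 30.6% of its reads matched a single place, whereas at least 97.4% did for Ubash3b and at least 99.4% for Akap10. These are descriptions over 10 samples that share 3 sets of files.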

How the data were processed

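Treg from spleen, thrombus and vein wall were sequenced from full-length cDNA of 2 ng RNA (12 cycles) and 1 ng cDNA in unstranded libraries, per the labels' protocols. The authors deposited raw counts per gene. The columns of exon reads (total and unique), introns and whole genes were used. Per the file headers, total reads include those with more than 1 match (13.6% to 21.8% of exon reads). The genome build was GRCm38 (submitters' processing notes). Aligner and counter: not given in the sources used here. Total exon reads of 20837 genes were joined over the 3 sets of files by symbol (20720) or synonym (117). Near-duplicate libraries were summed. Tissue was tested on counts in edgeR 4.0.16 (robust quasi-likelihood F test, TMM, its default filter, all tissues in 1 fit), and genes were called where the p adjusted by Benjamini-Hochberg was under 0.05. CPM use TMM library sizes, and per-length levels are CPM per kilobase of the exon length in each set, in place of the deposited RPKM that had been planned. Fits were tested on simulated data. DESeq2 1.42.0, BLAST 2.17.0 and matplotlib 3.10.9 were also used. Columns with no sample numbered 0.

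The 10 genes, the lists and the markers were chosen with earlier results of these data known. Named genes are the 10, any list gene called in the fit with tissue alone, the 3 tested genes per list with the largest absolute change against spleen in thrombus and likewise in vein wall, and the 3 most like Hif1a. Alternatives were another normalization and test, no filter, separate libraries, the replicate block, the set covariate, unique reads, pairs of tissues and leaving out each sample. Unique reads with the set covariate and leaving out set 2 were added after seeing the data. Protein sequences were not used here.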

Additional observations from a re-analysis of the deposited data

How the results depend on the processing

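None of the 499 values of the 10 genes under other settings passed the threshold (lowest adjusted p 0.225), so the settings bear on direction and on counts over all genes. No direction turned in 17 of the 30 gene and comparison pairs. The cause was not tested.

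Genes called between thrombus and spleen (17) numbered 105 with DESeq2's Wald test, 80 with no filter, 35 with 12 separate libraries, 53 with the set covariate and 49 with unique reads and the set covariate, and 6 to 34 on leaving out a sample (34 without spleen 1, 6 without spleen 2, 8 without the summed spleen sample). Between vein wall and spleen (13) they numbered 119, 66, 51, 48 and 36 in that order, 7 with unique reads, and 5 to 26 on leaving out a sample (26 without spleen 1, 5 without spleen 2, 6 without the summed spleen sample). Between thrombus and vein wall (0) they numbered 10 with DESeq2, 2 with no filter and 0 to 1 on leaving out a sample (1 without thrombus 2). Same-numbered libraries had correlations of -0.072 to 0.400 in their deviations from the tissue means, with 5 of 12 pairs above 0.1. Libraries of different tissues in the same set had -0.018 to 0.400, with 11 of 20 pairs above 0.1. Some same-numbered libraries also share a set, so these values cannot show whether the numbers pair the samples. With the replicate block 52, 67 and 0 genes were called.

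For thrombus against spleen, leaving out set 2 gave a log2 fold change of 0.28 for Hif1a, 0.31 for Egln1 and 0.19 for Vhl. Bnip3 (-0.01) was 0.029 with DESeq2's size factors, 0.029 with its Wald test, 0.014 with separate libraries, 0.064 with the set covariate, 0.0040 with only these tissues, 0.19 with unique reads and the set covariate and 0.034 without set 2. Hif3a was 1.78 with the block, 2.56 with the set covariate and 2.55 with unique reads and the covariate. On leaving out a sample the ranges were -0.52 to 0.035 for Hif1a, -0.49 to 0.30 for Egln1, -0.81 to 0.0020 for Vhl, -0.23 to 0.25 for Bnip3, -0.16 to 0.37 for Bnip3l, -0.59 to 0.14 for Kdm3a, -3.19 to 4.41 for Hif3a and -1.32 to 0.057 for Vegfb. For vein wall against spleen, Vegfa (-1.07) was 0.34 with the block, 0.79 with the set covariate and 0.80 with unique reads and the covariate, and Nrp2 was -0.22 without set 2. The ranges were -0.050 to 1.06 for Bnip3, -1.76 to 1.17 for Vegfa and -0.10 to 1.38 for Nrp2. For thrombus against vein wall, Egln2 was 0.29 without set 2, and P4ha1 was -0.16 with the set covariate and -0.16 with unique reads and the covariate. The ranges were -0.34 to 0.18 for Egln2, -0.34 to 0.051 for Egln3, -0.11 to 0.35 for Vhl, -1.07 to 0.046 for Bnip3 and -0.26 to 0.65 for P4ha1.

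Of the 10 genes, depth limits Vegfa most, since 0 to 138 reads per sample stood behind its values.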
